A study of Mus musculus with 12 samples.

Results

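The 7 genes described here encode proteins that coat lipid droplets, fuse them or control how droplets form and are emptied. They were taken by name, as Plin2, Plin3, Cidec, Hilpda, Fitm2, G0s2 and Hsd17b11, with no threshold on a measured value, though earlier results of these data were known. They are 7 of the 26855 genes with a count in the series. All 7 had counts, and all 7 passed the filter on low counts that left 12625 genes for testing.

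A lipid droplet is a core of neutral lipid, triglyceride and sterol ester, wrapped in a phospholipid monolayer that carries its own proteins. It buds from the endoplasmic reticulum, where FITM2 takes part, and is coated by perilipins, of which PLIN2 stays on the droplet and PLIN3 moves between cytosol and droplet. CIDEC joins droplets and passes lipid from the smaller to the larger. G0S2 and HILPDA bind and inhibit the triglyceride lipase ATGL, the product of Pnpla2, and HSD17B11 is a short-chain dehydrogenase found on droplets. Alveolar macrophages take up surfactant lipid, and lipid-laden macrophages are known from injured lungs.

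The cells were alveolar macrophages from mouse bronchoalveolar lavage fluid, collected 14 days after bleomycin, an agent that injures the lung, and every group shared this treatment. Per the series' design text, lavage cells were separated by a size filter into fractions rich and poor in cells abbreviated BAAM. Sorting then used side scatter together with the neutral lipid stain BODIPY. The sort therefore selected on a property that droplet proteins surround. The 12 libraries carry the titles UPBIG, UPSMALL and DOWN, with 4 libraries each. Which title belongs to which filter fraction and which gate is not given in the sources used here, nor are strain, age and sex, so the titles serve as group names. The labels do not state that the libraries of a group are from different mice, and the p-values then reflect no more than the spread of these samples, which may be technical. Fewer cells of a type and less RNA per cell cannot be told apart in such bulk libraries.

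Library totals ran from 17109669 to 23282621 estimated counts. All 12 alveolar macrophage markers had counts, and their summed level was 10040 to 13320 CPM (counts relative to the TMM-scaled library total) in UPBIG, 10270 to 15190 in UPSMALL and 7829 to 12120 in DOWN. Most of that sum was Chil3, and of the 12 markers 7 were higher and 1, Car4, was lower in UPBIG than in DOWN (edgeR), with a median log2 fold change of 0.80. The 8 monocyte markers summed to 266.9 to 369.7, 1031 to 1724 and 2034 to 2163 CPM in the same order, and the 8 dendritic cell markers to 2.87 to 6.62, 5.25 to 30.9 and 32.6 to 102.4 CPM. T and NK cell markers summed to 83.9 to 140.8, 35.4 to 75.9 and 71.4 to 186.3 CPM, of which Cd2, not called, averaged 96.5 CPM in UPBIG and 52.8 in DOWN. Of the 10 tested T and NK markers 8 were lower and 0 higher in UPBIG than in DOWN (edgeR), with a median of -3.71, such as Trbc2 at 0.779 against 12.6 CPM. B cell markers summed to 0.955 to 42.2, 5.99 to 18.3 and 6.45 to 39.7 CPM. The list of fibroblast, adipocyte and endothelial markers reached at most 1.88 CPM in any library, with no row of counts for Col1a1, Cfd and Cldn5. Eosinophil and mast cell markers reached at most 2.13 CPM, with no row of counts for 6 of 8. Between UPBIG and DOWN, most alveolar macrophage markers thus moved with the droplet genes, while 4 of 8 monocyte, 5 of 7 tested dendritic cell and 8 of 10 tested T and NK cell markers were lower in UPBIG. Over all tested genes 9.03% were higher and 8.48% lower in UPBIG. The part of these cell types in the results below was not tested.

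UPBIG stood highest for 6 of the 7 genes by group mean, and 5 of the 7, Plin2, Plin3, Cidec, G0s2 and Hsd17b11, were higher in UPBIG than in DOWN at an adjusted p under 0.05 (edgeR). 0 of the 7 were lower, also at an unadjusted p under 0.05 and with DESeq2 or limma-voom. Over all tested genes 17.5% differed in this comparison, 9.03% higher and 8.48% lower. For the same 5 genes every UPBIG library lay above every DOWN library, as for 11.0% of all tested genes, and 21.4% of all genes had no overlap in either direction. The median log2 fold change of the 7 was 1.16, and that of all tested genes was -0.033. Summed over the 7 genes, the level was 1370 ± 183.8 CPM (SD, n = 4) in UPBIG, 686.8 ± 120.8 in UPSMALL and 514.2 ± 11.6 in DOWN. Plin2 alone made up between 72.7% and 88.4% of that sum in every library.

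**Figure D1:**
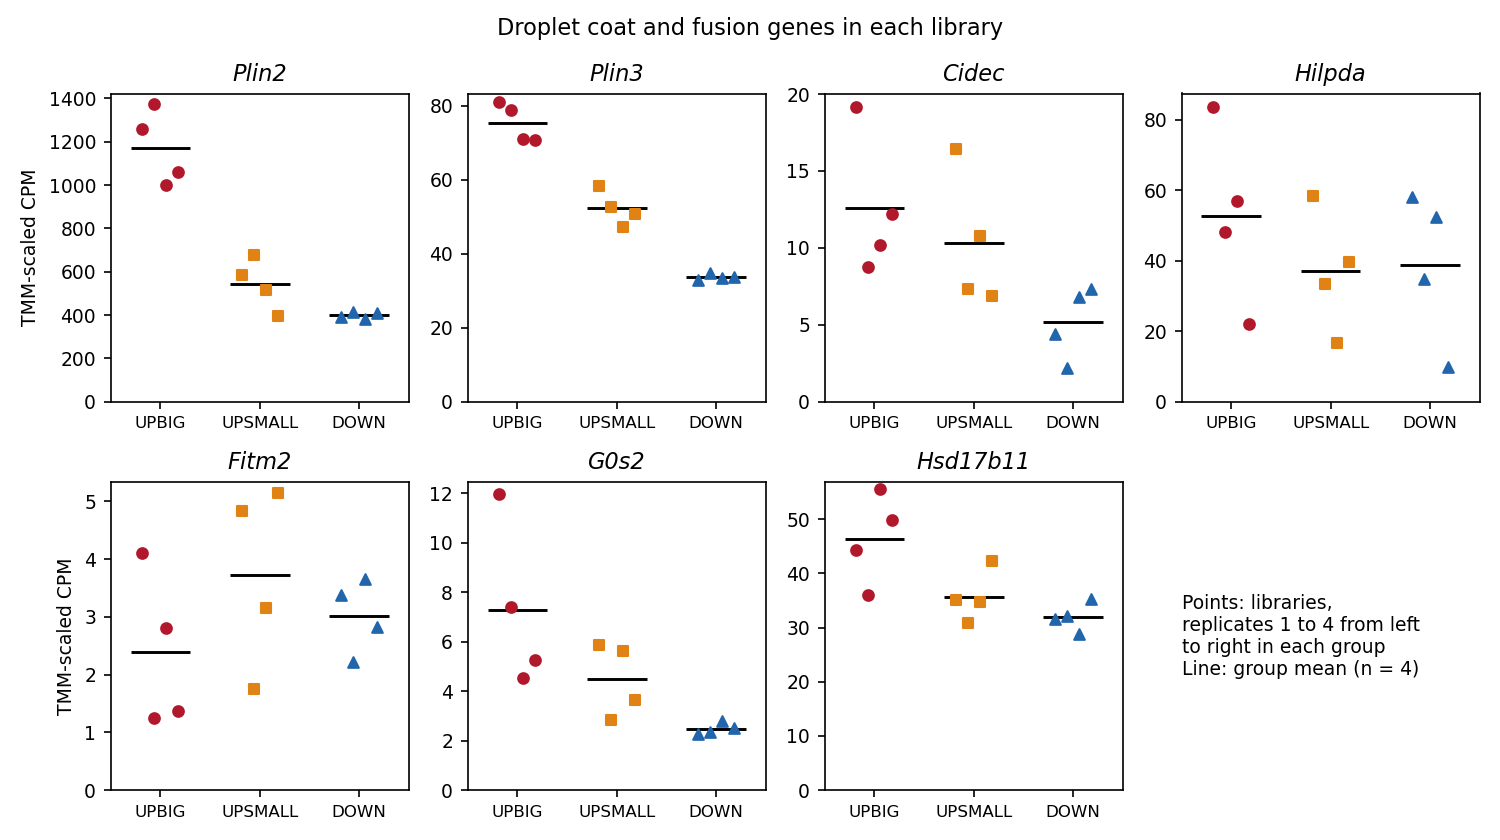
Level of each of the 7 genes in each library (TMM-scaled CPM), 4 points per group, with the group mean as a line. Plin2 lies between 1002 and 1373 CPM in UPBIG and no higher than 676.2 CPM elsewhere, while the Hilpda and Fitm2 groups overlap.

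Plin2 (chr4:86648386-86670060, minus strand, GRCm38), the broadly expressed droplet coat protein, was the most abundant of the 7 and ranked 153 of the 12625 tested genes by average level. The 4 UPBIG libraries held 1257, 1373, 1002 and 1058 CPM, the UPSMALL libraries 586.6, 676.2, 515.9 and 394.2, and the DOWN libraries 393, 413.2, 380.9 and 408.9. Every UPBIG library exceeded every library of the other groups, whereas the lowest UPSMALL library fell inside the narrow DOWN range. Plin2 was 2.94-fold higher in UPBIG than in DOWN (log2 fold change 1.56 ± 0.15 SE, edgeR adjusted p = 4.09e-07) and 2.16-fold higher than in UPSMALL (1.11 ± 0.14, edgeR adjusted p = 5.46e-05). The epithelial marker sum was 15.9 to 259.1 CPM in UPBIG, 11.3 to 37.6 in UPSMALL and 8.09 to 15.9 in DOWN. The highest library was UPBIG replicate 2, with Scgb1a1 at 212.4 CPM. Scgb1a1 alone of 5 tested epithelial markers was higher in UPBIG than in DOWN (3.45, edgeR adjusted p = 0.0401), and 0 were lower. Its level in every UPBIG library lay above every DOWN library, so leaving out UPBIG replicate 2 does not remove that difference. Without UPBIG replicate 2 the difference of Plin2 from DOWN was 1.47 on the log2 scale (edgeR adjusted p = 2.92e-06). The part of epithelial cells in the Plin2 values was not tested.

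Plin3 (chr17:56277476-56292873, minus strand), the exchangeable perilipin, was the only one of the 7 that separated all 3 groups. It stood at 80.94, 78.96, 71.01 and 70.71 CPM in UPBIG, 58.38, 52.72, 47.29 and 50.86 in UPSMALL, and 32.98, 34.86, 33.52 and 33.81 in DOWN. No library of one group reached the range of another. The log2 fold change was 1.16 ± 0.11 from DOWN to UPBIG (edgeR adjusted p = 5.46e-07), 0.53 ± 0.11 from UPSMALL to UPBIG (adjusted p = 0.00518) and 0.63 ± 0.11 from DOWN to UPSMALL (adjusted p = 0.00717). With library totals alone as the scaling, which moved the median of all genes to -0.31 in UPBIG against UPSMALL, the Plin3 difference there was 0.25 (edgeR adjusted p = 0.164).

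Cidec (chr6:113424634-113435760, minus strand), the droplet fusion protein best known from fat cells, was present at a low level. UPBIG libraries held 19.19, 8.79, 10.2 and 12.21 CPM, UPSMALL libraries 16.41, 7.35, 10.77 and 6.87, and DOWN libraries 4.42, 2.21, 6.79 and 7.31. All UPBIG libraries lay above all DOWN libraries, the closest being 8.79 and 7.31 CPM, and UPSMALL overlapped both. Cidec was higher in UPBIG than in DOWN by 1.28 ± 0.36 on the log2 scale (edgeR adjusted p = 0.0199). The call was lost without UPBIG replicate 1 (1.01, adjusted p = 0.0735) or without DOWN replicate 1 (1.22, adjusted p = 0.0574).

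G0s2 (chr1:193272161-193273217, minus strand), an inhibitor of ATGL, was also low, with 11.96, 7.41, 4.51 and 5.25 CPM in UPBIG, 5.84, 2.85, 5.61 and 3.64 in UPSMALL, and 2.25, 2.36, 2.79 and 2.5 in DOWN. The DOWN libraries lay below every library of both other groups, and UPBIG and UPSMALL overlapped. The log2 fold change from DOWN to UPBIG was 1.56 ± 0.33 (edgeR adjusted p = 0.00277). G0s2 lies inside the locus of Lamb3 on the opposite strand without sharing an exon, and over the 12 libraries Lamb3 had 57 counts and G0s2 had 1071.

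Neutrophils are a known source of G0s2, and the sum of 12 neutrophil markers was 389.2 to 433.3 CPM in UPBIG, 188.7 to 246.9 in UPSMALL and 161.9 to 201.6 in DOWN. Most of that sum was S100a8, at 375.2 ± 15.2, 168.8 ± 25.9 and 128.3 ± 16.5 CPM (SD, n = 4), and the chemokine receptor Cxcr2 ran at 16.4 ± 1.71, 2.88 ± 1.13 and 1.35 ± 0.686 CPM. Among the defining markers, Ly6g and Ngp had no row of counts, and the 12 libraries together held 15 counts of Retnlg and 12 of Camp. Of the 7 tested markers 2, S100a8 and Cxcr2, were higher in UPBIG than in DOWN and 2 were lower, Mmp8 (-1.26, edgeR adjusted p = 0.000152) and Il1r2 (-3.79, adjusted p = 0.00581), while Csf3r stood at -0.27 (adjusted p = 0.41). S100a9, which neutrophils carry beside S100a8, averaged 2.55 ± 2.34 CPM in UPBIG and 7.26 ± 4.36 CPM in DOWN. It was not called (-1.50, edgeR adjusted p = 0.427), and neither was Ltf (0.09, adjusted p = 0.946). The part of neutrophils in the G0s2 values was not tested.

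Hsd17b11 (chr5:103989762-104021919, minus strand), the droplet-associated dehydrogenase, differed least among the 5. Its level was 44.3, 35.98, 55.55 and 49.85 CPM in UPBIG, 35.11, 30.83, 34.7 and 42.31 in UPSMALL, and 31.64, 32.21, 28.9 and 35.32 in DOWN. UPBIG and DOWN came within 1 CPM of each other at 35.98 and 35.32 CPM without overlapping. The log2 fold change was 0.54 ± 0.14 (edgeR adjusted p = 0.0139). This call depended on the scaling and on 1 library: it was 0.21 (adjusted p = 0.363) with library totals alone, where the median of all genes was -0.36, and 0.44 (adjusted p = 0.0535) without UPBIG replicate 3.

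Hilpda (chr6:29272488-29275446, plus strand), the other ATGL inhibitor and a gene induced by low oxygen and by fatty acids, varied more between libraries of a group than between groups. It stood at 83.68, 48.06, 56.89 and 22.16 CPM in UPBIG, 58.38, 33.38, 16.5 and 39.59 in UPSMALL, and 57.92, 34.81, 52.43 and 9.71 in DOWN. The highest library exceeded the lowest 3.78-fold, 3.54-fold and 5.96-fold within the 3 groups, which overlapped throughout. The log2 fold change from DOWN to UPBIG was 0.45 ± 0.59 (edgeR adjusted p = 0.681).

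Libraries with the same replicate number in UPBIG and DOWN deviated together, and Hilpda was higher in UPBIG in 4 of 4 such pairs, by 1.45-fold, 1.38-fold, 1.09-fold and 2.28-fold. A fit of those 8 libraries with the replicate number as a block, chosen after the values were seen, gave 0.56 ± 0.15 (edgeR adjusted p = 0.0156), which would make Hilpda the sixth gene called. The same replicate block over all 12 libraries gave 0.48 (edgeR adjusted p = 0.598). UPSMALL replicates 1 and 2 deviated with their own numbers in both other groups and replicate 4 with its number in DOWN, but replicate 3 did with neither, so no pairing was taken for UPSMALL. For Plin2, Plin3, Cidec, G0s2 and Hsd17b11 every UPBIG library lay above every DOWN library. Any pairing of these libraries gives 4 of 4 for them, so that count adds nothing there.

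**Figure D2:**
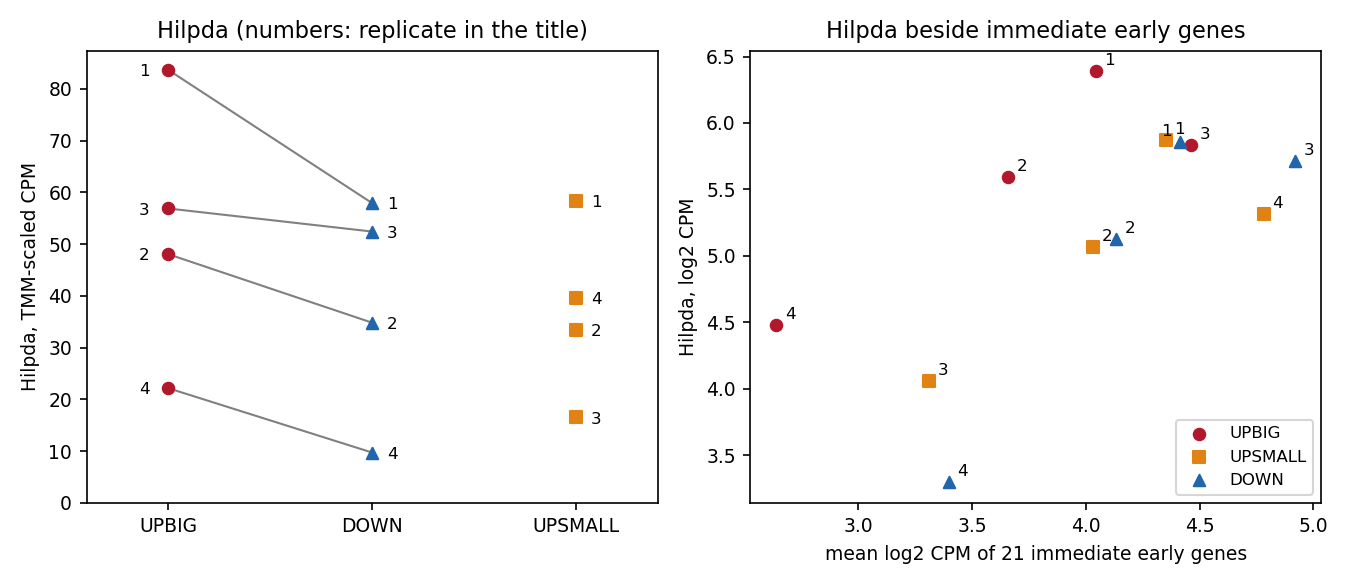
Left, Hilpda level (TMM-scaled CPM) in each library, with the replicate number beside each point and grey lines joining the same numbers of UPBIG and DOWN. Right, Hilpda log2 CPM against the mean log2 CPM of 21 immediate early and stress genes, a list chosen after the values were seen. Every line falls from UPBIG to DOWN, and the lowest Hilpda libraries, UPBIG replicate 4, UPSMALL replicate 3 and DOWN replicate 4, have the lowest immediate early means of their groups.

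The libraries lowest in Hilpda were also low in genes that respond within minutes to handling, stress and signals. UPBIG replicate 4, UPSMALL replicate 3 and DOWN replicate 4 were the lowest of their groups for Hilpda, and 16, 14 and 15 of 21 immediate early and stress genes had their minimum in the same library. Over all tested genes that share was 24.4%, 21.4% and 29.7%. The library highest in Hilpda, replicate 1 in each group, was the highest for 6, 5 and 5 of the 21 genes, near the 26.8%, 24.3% and 23.3% of all genes. Among 6912 genes searched, those closest to Hilpda in their deviations from the group means were Trib1 (root mean square difference 0.25 on the log2 scale), Btg2 (0.25), Ccrl2 (0.28) and Junb (0.32), the last an AP-1 subunit. Both the list and this search were chosen after the values were seen, and their part in the Hilpda values was not tested.

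Fitm2 (chr2:163466379-163472629, minus strand), the droplet-budding protein, was the scarcest of the 7, with 748 counts over the 12 libraries. Its levels were 4.11, 1.26, 2.81 and 1.36 CPM in UPBIG, 4.83, 1.75, 3.16 and 5.14 in UPSMALL, and 3.38, 2.21, 3.65 and 2.83 in DOWN. The groups overlapped, and Fitm2 was the only one of the 7 with its lowest mean in UPBIG. The log2 difference of UPBIG from DOWN was -0.34 ± 0.42 (edgeR adjusted p = 0.657) and that from UPSMALL -0.64 ± 0.42 (edgeR adjusted p = 0.479). An antisense gene, 2310001K24Rik, shares exon sequence with Fitm2 and had 9 counts.

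Between UPBIG and UPSMALL, 2 of the 7 genes differed, Plin2 and Plin3, both higher in UPBIG and without overlap. Over all tested genes 5.7% were called, 3.22% being higher in UPBIG, and 11.8% did not overlap, 6.47% with UPBIG above. The median log2 fold change of the 7 was 0.51, against -0.029 for all tested genes. The log2 fold changes of the genes not called were 0.70 ± 0.32 for G0s2 (edgeR adjusted p = 0.256), 0.38 ± 0.14 for Hsd17b11 (adjusted p = 0.153), 0.51 ± 0.59 for Hilpda (adjusted p = 0.738) and 0.29 ± 0.35 for Cidec (adjusted p = 0.754).

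Between UPSMALL and DOWN, Plin3 alone of the 7 was called, and Plin3 and G0s2 were the 2 genes whose libraries did not overlap. Over all tested genes 1.14% were called, 0.594% being higher in UPSMALL, and 8.25% did not overlap, 3.87% with UPSMALL above. Plin2 differed by 0.45 ± 0.14 (edgeR adjusted p = 0.155), with UPSMALL replicate 4 at 394.2 CPM against 515.9 CPM or more in the rest of the group. Without that library the difference was 0.58 (edgeR adjusted p = 0.025). Cidec stood at 0.99 ± 0.36 (edgeR adjusted p = 0.223) and G0s2 at 0.86 ± 0.33 (adjusted p = 0.253), both larger than the Plin3 difference but with wider errors. Hsd17b11 (0.16 ± 0.14), Fitm2 (0.30 ± 0.42) and Hilpda (-0.07 ± 0.59) had edgeR adjusted p-values of 0.711 to 0.976.

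**Figure D3:**
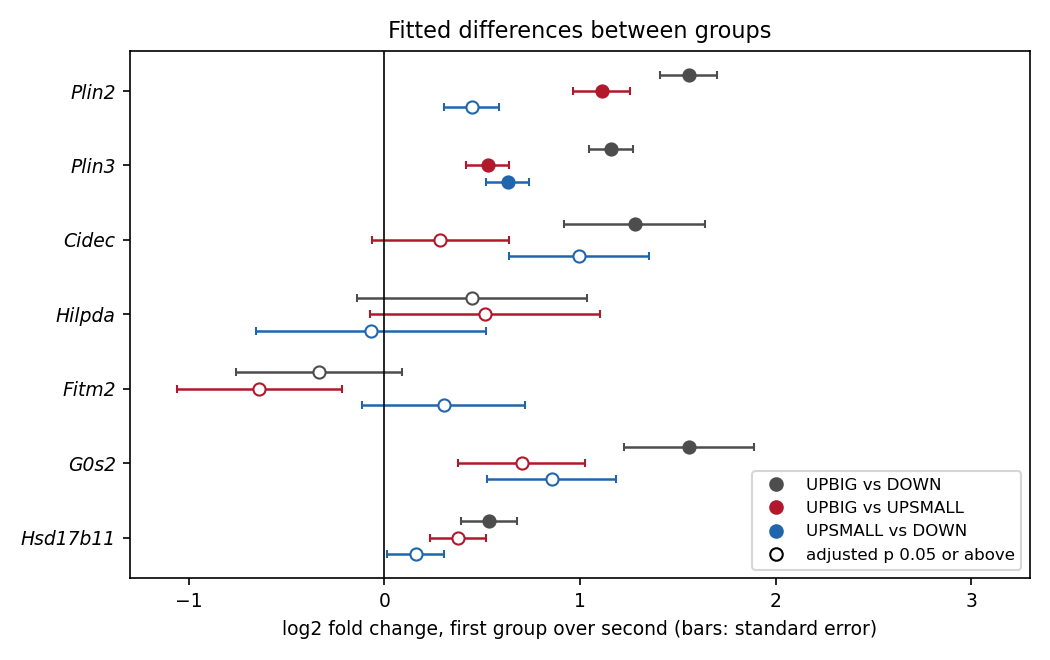
Log2 fold change of each of the 7 genes in the 3 comparisons, with bars of 1 standard error from edgeR. Filled points passed an adjusted p of 0.05: 5 genes in UPBIG against DOWN, 2 in UPBIG against UPSMALL and 1 in UPSMALL against DOWN.

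A joint test for any difference among the 3 groups called 4 of the 7, Plin2 (edgeR adjusted p = 6.14e-07), Plin3 (2.44e-06), G0s2 (0.00917) and Hsd17b11 (0.0357), against 13.8% of all genes. The Hsd17b11 call ended in 6 of 12 fits that left out 1 library, those without UPBIG replicate 1, 3 or 4 or DOWN replicate 1, 2 or 3 (adjusted p = 0.0547 to 0.141), and with limma-voom (0.0506) and library totals alone (0.606). Cidec had an adjusted p of 0.0541. Whether UPSMALL sat off the midpoint of UPBIG and DOWN was tested directly, and 0 of the 7 were called against 0.246% of all genes (edgeR), nor were any with DESeq2 or limma-voom. At an unadjusted p under 0.05, 1 of the 7 was off the midpoint, Plin2. Plin2 stood at -0.33 ± 0.12 from the log2 midpoint (adjusted p = 0.434) and Plin3 lay within 0.05 ± 0.09 of it (adjusted p = 0.934).

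The balance of the coat proteins was compared within each library, which needs no scaling between libraries. The ratio of Plin2 to Plin3 counts was 15.53, 17.39, 14.11 and 14.97 in UPBIG, 10.05, 12.83, 10.91 and 7.75 in UPSMALL, and 11.91, 11.85, 11.36 and 12.1 in DOWN. Every UPBIG library had more Plin2 per Plin3 count than every other library, and UPSMALL spread around the DOWN range. The mean log2 ratio was higher in UPBIG than in DOWN by 0.39 and higher than in UPSMALL by 0.60, each with p = 0.0286 in a two-sided exact permutation test, the smallest p that 4 against 4 libraries allows. Adjusted over the 6 ratio tests both p-values were 0.0857 (exact permutation test), so neither passed. UPSMALL differed from DOWN by -0.21 (exact permutation p = 0.229).

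Cidec counts per 100 Plin2 counts were 1.53, 0.64, 1.02 and 1.15 in UPBIG, 2.8, 1.09, 2.09 and 1.74 in UPSMALL, and 1.12, 0.536, 1.78 and 1.79 in DOWN. The 3 groups overlapped. UPBIG was lower than UPSMALL by 0.82 on the log2 scale (-0.82, exact permutation p = 0.0857, adjusted 0.171), and the remaining differences were -0.19 for UPBIG against DOWN and 0.63 for UPSMALL against DOWN (exact permutation p = 0.743 and 0.314).

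**Figure D4:**
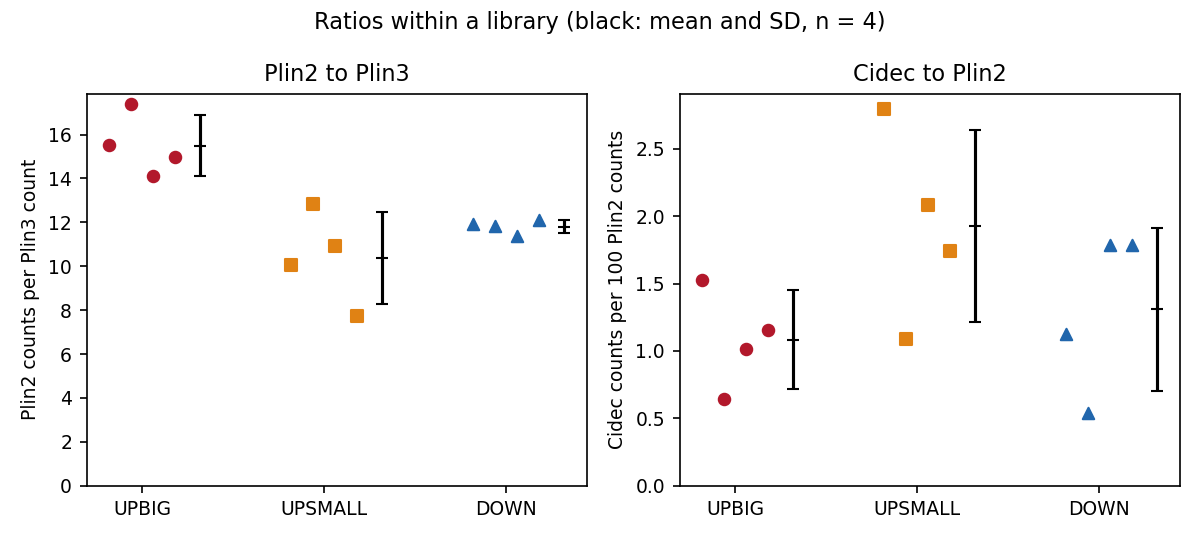
Ratio of Plin2 to Plin3 counts (left) and Cidec counts per 100 Plin2 counts (right) in each library, 4 points per group with mean and SD. The 4 UPBIG libraries lie between 14.11 and 17.39 in the left panel, above all others, and the groups overlap in the right panel.

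Levels of different genes were compared per kilobase of merged exons. In UPBIG the order was Plin2 at 333.9 ± 49.2 CPM per kb (SD, n = 4), Hilpda at 47.8 ± 23, Plin3 at 19.9 ± 1.4, Hsd17b11 at 14.2 ± 2.55, G0s2 at 8.36 ± 3.85, Cidec at 6.79 ± 2.49 and Fitm2 at 0.601 ± 0.341. The ranges of Hilpda and Plin3 overlapped, as did those of Hsd17b11 and G0s2 and those of G0s2 and Cidec, so these neighbours were not separated. In DOWN, Plin2 at 113.6 ± 4.24 and Hilpda at 35.1 ± 19.7 CPM per kb had the highest means. They were followed by Hsd17b11 at 9.81 ± 0.806, Plin3 at 8.93 ± 0.208, G0s2 at 2.84 ± 0.267, Cidec at 2.79 ± 1.26 and Fitm2 at 0.761 ± 0.16 CPM per kb. Plin3 stood above Hsd17b11 without overlap in UPBIG, and the ranges of these genes overlapped in DOWN. Hilpda in DOWN spanned 8.81 to 52.5 CPM per kb and overlapped both, so its place after Plin2 was not separated from theirs. G0s2 and Cidec overlapped there as well.

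For each gene called in the joint test, the most similar profiles over the 12 libraries were sought among 1260 other genes called in that test (1261 for G0s2), by the root mean square difference of centred log2 CPM. Plin2 was closest to Mcoln3 (0.16), an endolysosomal cation channel, Igf1 (0.16), a growth factor made by alveolar macrophages, and Fabp5 (0.18), a fatty acid binding protein. Igf1 stood at 720.7 ± 62.3 CPM in UPBIG, 339 ± 72.7 in UPSMALL and 252 ± 29.7 in DOWN. Plin3 was closest to Tnfrsf23 (0.12), Samd8 (0.13) and Lpl (0.14), which encodes lipoprotein lipase. Among the genes searched G0s2 had no equally near one: Fkbp11, Pxmp4 and Laptm5 lay at 0.33, 0.34 and 0.36. With an average log2 CPM of 2.27, G0s2 itself lay under the search minimum, so genes at its level were not searched. Hsd17b11 was closest to Ubl5, Ndufc1 and Atpif1 (0.10, 0.11 and 0.11), of which the last 2 belong to the mitochondrial respiratory machinery. These distances are descriptions over libraries that share scaling and groups.

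Other droplet genes were read from lists named for their function. Of 7 relatives of the coat and fusion proteins, only Cideb passed the count filter. Cideb, known for lipid transfer between liver droplets, stood at 17.7 ± 4.98 CPM in UPBIG, 10.3 ± 2.61 in UPSMALL and 5.87 ± 2.31 in DOWN, and was higher in UPBIG than in DOWN by 1.59 ± 0.29 (edgeR adjusted p = 0.000728). Plin1, the adipocyte coat protein, had 75 counts over the 12 libraries, Plin4 had 7, Fitm1 had 6, and Plin5, Cidea and Hsd17b13 had 1 each.

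Of 5 tested lipases and cofactors, 3 were higher in UPBIG than in DOWN and 0 were lower, with a median log2 fold change of 0.77. Over all tested genes 9.03% were higher and 8.48% lower. Mgll, monoglyceride lipase, rose from 16.2 ± 2.11 CPM in DOWN through 48.8 ± 9.53 in UPSMALL to 160.8 ± 20.8 in UPBIG, by 3.31 ± 0.16 in UPBIG against DOWN (edgeR adjusted p = 6.85e-11), and was called in all 3 comparisons. Lipa, the lysosomal acid lipase, was higher by 0.88 ± 0.13 (adjusted p = 0.000126). Pnpla2, which encodes ATGL, was higher by 0.77 ± 0.17 (edgeR adjusted p = 0.00352), and so was its inhibitor G0s2. With library totals alone the Pnpla2 difference was 0.44 (adjusted p = 0.0577). Abhd5, the ATGL co-activator, stood at 0.18 ± 0.11 and Lipe at -1.04 ± 0.64, neither called.

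Of 17 tested assembly and surface proteins, 1 was higher in UPBIG than in DOWN, Pcyt1a of phosphatidylcholine synthesis (0.82 ± 0.23, edgeR adjusted p = 0.0189). The Pcyt1a call ended with library totals alone (0.51, adjusted p = 0.067), which left 0 of the list higher, and without UPBIG replicate 2, DOWN replicate 1 or DOWN replicate 4 (0.0529 to 0.0603). Another 3 were lower, among them Vmp1 (-0.71 ± 0.15, adjusted p = 0.00219) and Acsl3 (-1.24 ± 0.40, adjusted p = 0.0378), an acyl-CoA synthetase of nascent droplets. The Acsl3 call ended without UPBIG replicate 1, 2 or 4 or any 1 DOWN library (edgeR adjusted p = 0.053 to 0.102). The list's median was 0.14. Over all tested genes 9.03% were higher and 8.48% lower in this comparison. Of 9 tested genes of glyceride and sterol ester synthesis, 2 were higher, Soat1 (0.51 ± 0.11, edgeR adjusted p = 0.00264) and Lpin1, and 2 were lower, Agpat2 (-0.83 ± 0.24, adjusted p = 0.0213) and Soat2, which was under 1 CPM in each group mean. With library totals alone 2 of the list were called and 0 were higher, with Soat1 at 0.19 (edgeR adjusted p = 0.213). Of the 12625 tested genes 3755 were called with that scaling, 518 of them higher. The Agpat2 call ended without UPBIG replicate 2 or 4 or DOWN replicate 2 or 3 (adjusted p = 0.0601 to 0.0807). The last steps of triglyceride synthesis, Dgat1 (0.68 ± 0.33, adjusted p = 0.2) and Dgat2 (-0.12 ± 0.37, adjusted p = 0.874), were not called.

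PPAR nuclear receptors respond to fatty acids and are known to drive Plin2. Of 17 tested PPAR target genes 14 were higher in UPBIG than in DOWN and 0 lower, with a median log2 fold change of 0.98. Over all tested genes 9.03% were higher. The list was chosen with earlier results of these data known, and the part of PPAR receptors in these values was not tested. Pparg, the receptor gene among the alveolar macrophage markers, was not called (0.31, edgeR adjusted p = 0.0809). With library totals alone 10 of the list were called, all higher. Of the 12625 tested genes 3755 were called with that scaling, 518 of them higher. Pdk4, a brake on glucose oxidation, stood at 14.8 ± 4.84 CPM in UPBIG, 1.38 ± 0.331 in UPSMALL and 0.0894 ± 0.116 in DOWN. Acadl, an enzyme of fatty acid oxidation, was at 156 ± 12.5, 65.2 ± 6.51 and 64.9 ± 3.08 CPM, and Angptl4 was higher in UPBIG by 1.15 ± 0.15 (edgeR adjusted p = 2.25e-05). Cpt1a (0.09 ± 0.10) and Acadm (0.08 ± 0.15) were not called. In UPBIG against UPSMALL 12 of the 17 were higher, and in UPSMALL against DOWN 2, Pdk4 and Fabp4. Over all tested genes these shares were 3.22% and 0.594%. That Fabp4 call ended without any 1 UPSMALL library or DOWN replicate 3 (edgeR adjusted p = 0.0565 to 0.0721), and that of Pdk4 with limma-voom (0.0864).

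Of 14 tested hypoxia-inducible genes, a class to which Hilpda belongs, 0 were higher in UPBIG than in DOWN by edgeR and 2 were lower, Slc2a1 (-0.69 ± 0.22, edgeR adjusted p = 0.0406) and Ndrg1 (-1.25 ± 0.42, adjusted p = 0.0483). DESeq2 called 1 higher and 3 lower, limma-voom 0 higher and 3 lower, and at an unadjusted p under 0.05 edgeR had 1 higher, Pdk1 (0.60 ± 0.22), and 4 lower. The Slc2a1 call ended without UPBIG replicate 1, 2 or 4, UPSMALL replicate 2 or any 1 DOWN library (edgeR adjusted p = 0.0515 to 0.14). That of Ndrg1 ended without any 1 UPBIG library, UPSMALL replicate 2 or DOWN replicate 2, 3 or 4 (0.0503 to 0.166) and with the replicate block (-1.10, adjusted p = 0.072). The median was -0.23. Over all tested genes 9.03% were higher and 8.48% lower in UPBIG than in DOWN by edgeR. With library totals alone, where the median of all genes was -0.36, 5 of the list were called and 0 were higher. Of the 12625 tested genes 3755 were called with that scaling, 518 of them higher. In UPBIG against UPSMALL 0 of the 14 were called by edgeR, 2 at an unadjusted p under 0.05 and 1 by DESeq2. In UPSMALL against DOWN 0 were called by edgeR and DESeq2 and 1 at an unadjusted p under 0.05. In these comparisons the relatives, the assembly list and the synthesis list together had 1 edgeR call, Vmp1, lower in UPSMALL than in DOWN (-0.61 ± 0.15, adjusted p = 0.0465). That call ended in 9 of 12 fits that left out 1 library, all but those without UPBIG replicate 1, UPSMALL replicate 2 or DOWN replicate 4 (0.053 to 0.153).

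**Figure D5:**
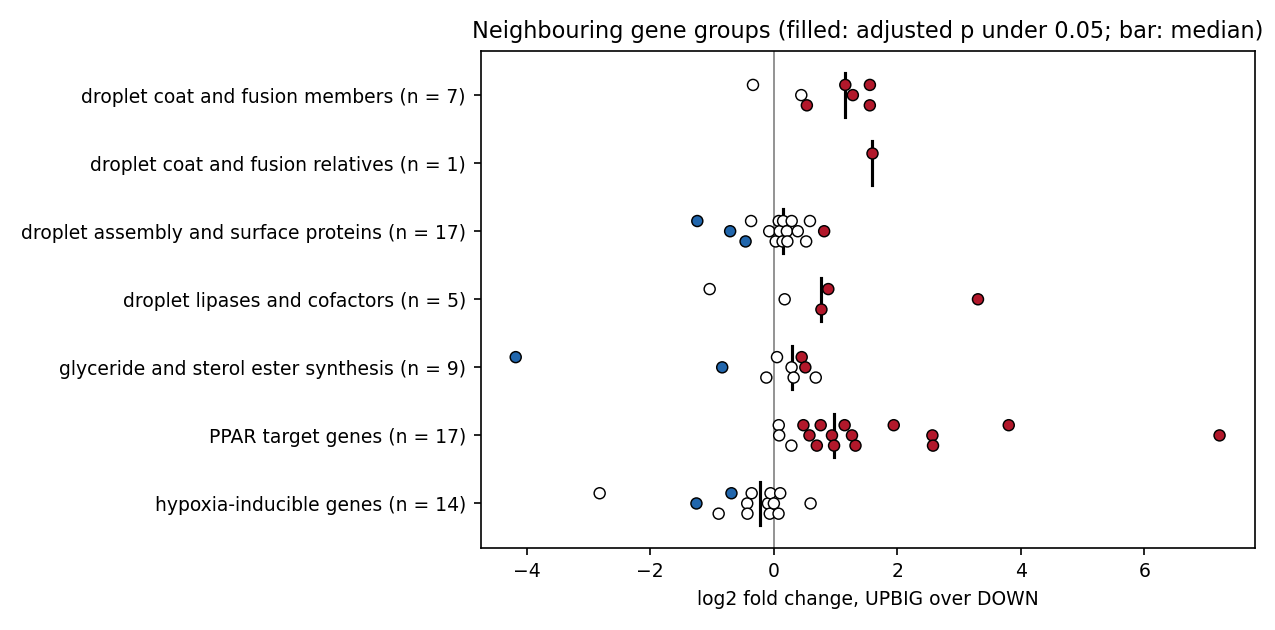
Log2 fold change of UPBIG against DOWN for each tested gene of the 7 droplet genes and 6 related lists, with the list median as a line and called genes filled. The PPAR targets have a median of 0.98 and the hypoxia-inducible genes one of -0.23.

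The start regions of Plin2, Plin3 and G0s2, which were each called in the joint test, and of Hilpda, which was not, are shown to set their sequences side by side. Hsd17b11, also called in that test, is not shown. All 7 genes matched RefSeq promoter entries by symbol, with 9 start sites in all. Each line holds 100 bases before and 20 bases after the RefSeq start on GRCm38.p6, 5′ to 3′ on the gene's strand, with capitals marking a matched motif.
Plin2: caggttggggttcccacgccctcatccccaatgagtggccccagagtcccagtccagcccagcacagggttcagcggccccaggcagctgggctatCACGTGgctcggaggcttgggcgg
Plin3: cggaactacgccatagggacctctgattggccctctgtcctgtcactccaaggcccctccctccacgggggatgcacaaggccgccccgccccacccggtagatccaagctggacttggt
G0s2: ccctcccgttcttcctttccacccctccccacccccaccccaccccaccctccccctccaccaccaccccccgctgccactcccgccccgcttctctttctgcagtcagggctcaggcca
Hilpda: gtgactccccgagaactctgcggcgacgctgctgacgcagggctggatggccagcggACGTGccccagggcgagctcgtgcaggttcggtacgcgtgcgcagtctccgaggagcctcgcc

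The windows above are chr4:86670040-86670159 (minus strand) for Plin2, chr17:56290492-56290611 (minus) for Plin3, chr1:193273169-193273288 (minus) for G0s2 and chr6:29272526-29272645 (plus) for the second of 2 Hilpda starts. Motifs were searched on both strands in 300 bases around each start. They were the E-box CACGTG, the hypoxia response core ACGTG, the hexamer AGGTCA bound by nuclear receptors, and its direct repeats DR1 and DR4, with 1 and 4 bases between the copies. CACGTG contains ACGTG on both strands, and each repeat contains the hexamer.

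Plin2 has CACGTG at positions -4 to 2, counted from the start site as 1 with no 0, and AGGTCA on the opposite strand at -218 to -213. Hilpda has ACGTG at -43 to -39 of its second start, and the window of its first start held no match. The windows of Plin3, G0s2, Cidec, Fitm2 and Hsd17b11 held none of these letters. Among 32851 promoter windows of the same length, 7.15% held CACGTG, 19.6% ACGTG, 16.3% AGGTCA, 0.0396% DR1 and 0.0152% DR4. A match is a description of the sequence and not a site of binding.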

How the data were processed

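RNA of 12 sorted samples was measured with SMART-Seq HT: cells were lysed without RNA extraction and polyadenylated RNA was amplified as cDNA, per the labels. The authors deposited estimated counts for each gene, from STAR and RSEM on mm10, per the submitters' processing notes. Neither versions nor annotation nor strandedness is given in the sources used here. Reads of antisense partners therefore cannot be told apart. Of the values, 13.8% are not whole, and all were rounded. Symbols and coordinates came from GENCODE of the same assembly (26775 of 26855 identifiers matched).

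The 12 libraries were fitted together in edgeR 4.0.16 (R 4.3.3): filterByExpr, TMM scaling, robust quasi-likelihood tests, no block. Benjamini-Hochberg adjustment ran over the 12625 genes tested, and an adjusted p under 0.05 is a call. Standard errors were taken as log2 fold change over the square root of F. The procedure was tested on simulated data. Count ratios used a pseudocount of 0.5 and exact permutation tests. Alternatives were scaling, filter, DESeq2 1.42.0, limma-voom, replicate block and leaving out each library.

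Replicate numbers come from the titles, which do not say what they mark. Over 7126 genes, deviations from the group means correlated between same-numbered UPBIG and DOWN libraries at 0.127, 0.28, 0.264 and 0.203, so these were set side by side as pairs. The main fit had no block and used no pairs, and the replicate number entered only the replicate block fits. With UPSMALL the same-number correlations ran from -0.0976 to 0.361 and from -0.00777 to 0.284, so no pairing was taken there.

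The 7 genes and the gene lists (158 of 172 symbols had a row) were chosen with earlier results of these data known. All 7 are described. From each related list the text names up to 3 called genes with the smallest p per comparison, and further genes of the lists were named after their values were seen. The 3 nearest profiles are named for each gene called in the joint test. Counts come from amplified cDNA without molecular identifiers, and library totals of 17109669 to 23282621 set their precision.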

Additional observations from a re-analysis of the deposited data

How the results depend on the processing

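In the comparisons between groups and with the midpoint, the 7 genes' results kept their direction and call status in 550 of 570 alternatives. Most of these were results not called in either fit. The main fit called 5, 2 and 1 of the 7 between groups and 0 off the midpoint. In the remaining alternatives 5 lost a call, all for Cidec, Hsd17b11 or Plin3, 5 gained one and 10 changed sign. The joint test is not part of these counts, and its calls of Cidec and Hsd17b11 changed in several alternatives. With library totals alone, 4 of 7 were called in UPBIG against DOWN and 1, Plin2, in UPBIG against UPSMALL. Genes called overall were then 3755 in UPBIG against DOWN, 518 of them higher (2210 and 1140 with TMM), 1622 in UPBIG against UPSMALL, 189 higher (720 and 406), 66 off the midpoint (31) and 3021 with any difference (1736). The cause was not tested. In UPSMALL against DOWN, limma-voom called 2 of the 7 (Plin2 and Plin3) and the fit without a low-count filter 3 (with Cidec). That comparison held 144 called genes, against 393 with DESeq2, 226 with limma-voom, 460 without the filter, 275 with the replicate block and 283 with the replicate block in only the 8 libraries compared. Off the midpoint these were 129 with DESeq2, 50 with limma-voom, 241 without the filter, 47 with at least 5 CPM in 4 libraries, and 103 with the replicate block. Apart from Hilpda in the 8 libraries, pairing by the replicate block changed no call of the 7 in UPBIG against DOWN.

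Leaving out each library gave 4 to 5, 2, and 1 to 2 of the 7 in UPBIG against DOWN, UPBIG against UPSMALL and UPSMALL against DOWN. Genes called ran from 1777 to 2421, 500 to 762 and 58 to 179, with the fewest in UPSMALL against DOWN without UPSMALL replicate 1. Off the midpoint they ran from 24 to 60. The log2 difference of Cidec per Plin2 in UPBIG against DOWN ran from -0.57 to 0.040. In the joint test Cidec gained a call with DESeq2 (0.0103), limma-voom (0.0241), no filter (2.54e-05), the 5 CPM filter (0.0447) and the replicate block (0.0152), and without UPSMALL replicate 1 or 4 or DOWN replicate 4 (0.0377 to 0.0422).

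Differences that changed sign were not called by edgeR. With library totals they were Soat1 in UPBIG against UPSMALL (-0.0415), Acadl in UPSMALL against DOWN (-0.0357) and Hsd17b11 off the midpoint (0.018). With limma-voom they were Acadl (-0.015) and Slc2a1 (-0.02) in UPSMALL against DOWN, and with the replicate block Hilpda there (0.13, and 0.047 in the 8 libraries). Over the libraries left out, the ranges were -0.073 to 0.25 for G0s2 and -0.0026 to 0.096 for Plin3 off the midpoint, and -0.20 to 0.021 for Vmp1 in UPBIG against UPSMALL. In UPSMALL against DOWN they were -0.40 to 0.096 for Acsl3, -0.035 to 0.25 for Slc2a1, -0.034 to 0.057 for Acadl and -0.38 to 0.21 for Hilpda. Depth limits Fitm2 most, which the filter of 5 CPM in 4 libraries removed.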

Other observations

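Single immediate early genes show the library pattern set beside Hilpda, and each was named after its values were seen. Fos, an AP-1 subunit, stood at 217.4, 100.8, 187 and 21.3 CPM in UPBIG, 238.2, 176.7, 53.96 and 262.1 in UPSMALL, and 239.4, 148.1, 269.1 and 51.2 in DOWN. Its lowest libraries, UPBIG replicate 4, UPSMALL replicate 3 and DOWN replicate 4, are the lowest for Hilpda too. Dusp1, a phosphatase that ends MAP kinase signalling, ran at 86.5, 36.5, 123 and 2.93 CPM in UPBIG, 101.5, 58, 12.6 and 105.5 in UPSMALL, and 97.3, 64.7, 169.7 and 12.2 in DOWN, with its minimum in the same libraries. Btg2, an antiproliferative gene, had 62.99, 33.59, 41.31 and 11.59 CPM in UPBIG, 94.02, 52.67, 19.53 and 88.84 in UPSMALL, and 102.9, 54.07, 95.84 and 22.49 in DOWN. Over all profiles, correlations of deviations from the group means placed UPBIG replicate 4 nearest to UPSMALL replicate 3 (0.406) and UPBIG replicate 3 nearest to UPSMALL replicate 4 (0.285). The labels do not say what the numbers mark, and whether they are crossed in UPSMALL was not tested.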
